A study of Mus musculus with 6 samples.

Results

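The mitosis and kinetochore genes were followed in primary mouse chondrocytes, the cells of cartilage, with and without the microRNA miR-34a. They were taken by symbol: genes beginning with Cenp, Bub1, Aurk, Ska1, Ska2, Ska3, Ndc80, Nuf2, Spc24 or Spc25, plus 27 named cyclins, kinases, kinesins and spindle proteins. This gave 43 of the 10189 genes in the deposited table. Of the named genes, Plk1, Kif14, Kif18a and Kif18b were not analysed here, nor were Ska1 and Spc24. The start of the symbol also brought in Aurkaip1, a protein of the mitochondrial ribosome, and Cenpj, a centriole protein, neither of which is a kinetochore gene.

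Total RNA was sequenced from 3 KO samples (genotype MiR-34a -/-, global homozygous knockout) and 3 WT samples (wild type), all from C57BL/6 mice aged 5 weeks. The labels give the model name Mir34atm1.2 Mrl for all 6 samples, those of wild type included. Cartilage scraped from knees and hips was pooled and digested with collagenase, and the cells were grown without treatment in serum-containing medium until confluent, so the values describe cultured cells and not cartilage itself. Whether replicates are different animals or culture dishes is not stated in the labels. The p-values therefore cover the spread between these samples alone, and that spread may be technical. Mir34a itself was not analysed here, which leaves the genotypes without a check on the deleted locus.

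A cell enters mitosis when cyclins A and B activate the kinase Cdk1. Chromosomes then attach to spindle microtubules through kinetochores, protein plates built on the centromere, and the checkpoint kinases hold back Cdc20 and the anaphase-promoting complex until every kinetochore is attached. Kinesin motors shape the spindle and its midzone, and anillin and its partners cleave the cell. Many of these genes are transcribed late in the cell cycle, so that their RNA is known as a marker of dividing cells. miR-34a is a p53-induced microRNA known to restrain proliferation in several cell types. Its mature sequence is shown with the seed, bases 2 to 8, in capitals, because it sets which messages it can pair with (RefSeq, GRCm38.p6, chr4:150068473-150068494, plus strand).
mmu-miR-34a-5p: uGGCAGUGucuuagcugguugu

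The values are read counts that the authors scaled by library size with the TMM method (CPM). Whole reads could be recovered from them, 1235981 to 1991232 per KO library and 989217 to 5266617 per WT library. The highest count was that of WT 1, where the row Rn45s held 59.1% of the reads, against 2.98% to 11.4% in the other libraries. With the rows Rn45s, Lars2 and Mir6236 set aside, 1136278 to 1772185 reads were left per KO library and 947081 to 1227052 per WT library. The 43 genes together held 4110 to 7877 reads per KO library and 5355 to 6178 per WT library. The median member had 38.0 to 71.0 reads in KO and 51.0 to 55.0 in WT, so counting error alone is large for single genes. No row has a second-highest value below 7.35 CPM, so genes low in nearly all libraries have no row. A gene could therefore pass through 1 genotype alone.

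A limit on what each row measures comes from strand. The library kit keeps the strand, but the sources used here do not say which strand was counted. Tsix, which lies antisense to Xist, stood at 8.12 to 12.8 times Xist in KO libraries and at 12 to 16.5 times in WT libraries, and Gapdh, an abundant housekeeping message, reached only 47.0 to 69.1 CPM in KO and 55.6 to 72.9 CPM in WT. Actb, another abundant housekeeping message, did not stand low, with 1582 to 2159 CPM in KO and 2092 to 2603 CPM in WT. Reads of a member and of a gene on the opposite strand cannot be told apart here. Of the 43 members, 13 share exon bases with an opposite-strand gene in GENCODE M21 (mm10) and 30 do not. The limit covers these 30 as well, since the strand that was counted is not known and was not tested. All values below carry it.

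Most of the 43 genes had lower means in KO, but with limma none passed the threshold. Log2 fold changes are KO against WT on log2(CPM + 0.5), which understates the change of low genes, and a call is an adjusted p below 0.05 with Benjamini-Hochberg adjustment over all 10189 genes. Limma called 0 members lower and 0 higher, against 0.00981% and 0% of all genes. With the recovered reads, edgeR's quasi-likelihood test (0.0196% of all genes lower) and limma-voom (0.00981% lower) also called 0 members. DESeq2 called 4 members lower, Cenpe, Top2a, Ccna2 and Mki67, and 0 higher, against 1% and 0.255% of all genes. It gave an adjusted p for only 15 of the 43 members and for only 3266 of the 10189 genes, since it sets low genes aside. The shares of 1% and 0.255% are of all 10189, so they are smaller than the shares among genes it could call. At an unadjusted limma p below 0.05, 13 members were lower and 0 higher, while 6.4% of all genes were lower and 4.64% higher. In 17 members every KO library lay below every WT library, against 9.57% of all genes, and in 0 members every KO library lay above, against 8.82%. On the log scale 34 members had lower means in KO and 9 higher, against 48.6% and 51.4% of all genes. Their median log2 fold change was -0.57, beside 0.02 over all genes. Among the 30 members with no opposite-strand exons, 9 were lower and 0 higher at an unadjusted p below 0.05, against 4.43% and 5.14% of all such genes. In 12 of the 30 every KO library lay below every WT library and in 0 above, against 6.92% and 9.76%, with a median of -0.64.

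**Figure D1:**
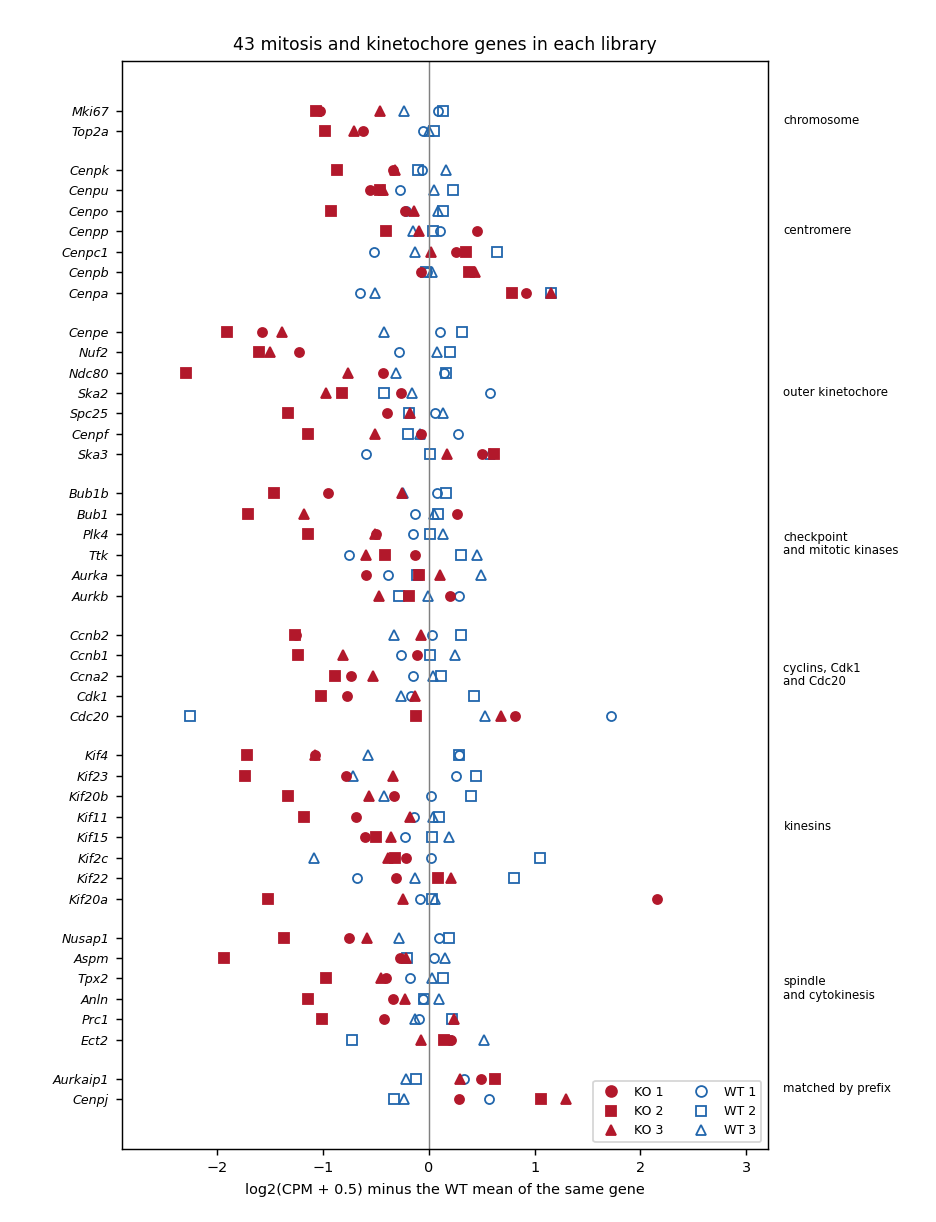
Each row is a member, grouped by role, and each point 1 library, as log2(CPM + 0.5) minus the mean of the 3 WT libraries (filled red: KO; open blue: WT; circle, square and triangle: replicates 1, 2 and 3). KO 2, the red squares, was the lowest of the 6 libraries in 27 of the 43 rows, and in 17 rows every red point lies left of every blue point.

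The KO libraries were not alike. KO 2 was the lowest of the 6 libraries for 27 of the 43 members (62.8%), while it was the lowest for 19.7% of all genes. Relative to the WT mean, the median member stood at -0.34 in KO 1, -0.98 in KO 2 and -0.32 in KO 3 on the log2 scale, against -0.05, 0.09 and 0.00 in the WT libraries. The summed level of the 30 members with no opposite-strand exons was 1288, 1057 and 1494 CPM in KO libraries, against 2005, 2167 and 1858 CPM in WT libraries, so the groups did not overlap. That of the other 13 was 1718, 956 and 1433 CPM in KO libraries, against 1593, 1912 and 1764 CPM in WT libraries, and KO 1 lay within the WT range. Without KO 2 the median log2 fold change was -0.36, and 17 members lay below every WT library, where 16.2% of all genes did. The 13 members lower at an unadjusted p became 8 without KO 2 (7.8% of all genes), 7 without WT 2 (3.77%) and 7 without KO 2 and WT 1 together (share of all genes not given here). In bulk RNA, fewer dividing cells and less RNA of these genes per cell cannot be told apart.

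Markers of the cell types in the cultures also moved between libraries. Of 13 chondrocyte markers, 11 were measured and none was at 0. Their summed level was 3650.1 to 6672 CPM in KO and 2315 to 3589 CPM in WT. The 13 macrophage markers summed to 1032, 15015 and 3411 CPM in KO 1, KO 2 and KO 3, against 5159 to 6110.3 CPM in WT, with none at 0. KO 2 thus had both the highest macrophage sum and the lowest sum of mitotic genes. KO 1 had the lowest macrophage sum, and its sum of the 43 members also lay below WT, at 3006 CPM against 3597 to 4080 CPM. The 6 measured mural markers summed to 183 to 421 CPM in KO and 512 to 715 CPM in WT, and the 5 fibroblast markers to 3459 to 4683 CPM in KO and 5397 to 6727 CPM in WT. The 2 measured endothelial markers, Pecam1 and Cdh5, were listed at 0 in KO 1 and KO 3 and summed to 43.6 CPM in KO 2, against 11.3 to 34 CPM in WT. The summed levels do not stand for each marker. On the log scale the KO mean was higher for 10 chondrocyte markers and lower for 1. It was higher for 2 macrophage markers and lower for 11, higher for 1 mural marker and lower for 5, higher for 2 fibroblast markers and lower for 3, and lower for both endothelial markers. The part of these cell types in the values of the mitotic genes was not tested.

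The mitotic chromosome genes stood lower in each KO library. Mki67 encodes the Ki-67 protein that coats mitotic chromosomes and is the usual marker of proliferation. It had 324, 317 and 483 CPM in KO libraries, against 707, 729.9 and 566 CPM in WT libraries. On the log2 scale it differed by -0.85 (SE 0.22; limma adjusted p = 0.281, DESeq2 adjusted p = 0.0187). Top2a encodes topoisomerase II alpha, which untangles sister chromatids. It had 203, 159 and 192 CPM in KO libraries, against 302, 325 and 314 CPM in WT libraries. The groups were far apart beside their spread, 185 ± 22.9 CPM in KO and 314 ± 11.9 CPM in WT (SD, n = 3 each), or -0.77 on the log2 scale (SE 0.18; adjusted p of limma = 0.273, DESeq2 adjusted p = 0.00930). Neither gene has opposite-strand exons. Mki67 lies on chromosome 7 at 135689784 to 135716361 and Top2a on chromosome 11 at 98992943 to 99024189 (mm10).

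The outer kinetochore held the members of largest log2 fold change. Cenpe encodes the kinesin motor that carries chromosomes to the spindle equator. It had 32.1, 25.5 and 36.7 CPM in KO libraries, against 104, 120.4 and 72.1 CPM in WT libraries. Every KO library thus stood below the lowest WT library, with means of 31.4 ± 5.64 CPM in KO and 98.7 ± 24.5 CPM in WT (SD, n = 3 each). The log2 difference was -1.62 (SE 0.26; limma adjusted p = 0.150, DESeq2 adjusted p = 0.000125), and leaving out single libraries moved it between -1.83 and -1.46. It has no opposite-strand exons and lies on chromosome 3 at 135212537 to 135273611 (mm10).

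Nuf2, Ndc80 and Spc25 belong to the Ndc80 complex, the kinetochore's grip on microtubules. Nuf2 had 14.1, 10.8 and 11.6 CPM in KO libraries, against 27.6, 38.9 and 35.8 CPM in WT libraries, and the groups did not overlap (log2 fold change -1.44, SE 0.30, limma adjusted p = 0.238). These are 19 to 37 reads per KO library and 44 to 61 per WT library. Ndc80 had 21.0, 5.39 and 16.5 CPM in KO libraries, against 31.4, 32 and 22.9 CPM in WT libraries, again without overlap but with KO 2 far below the rest (log2 fold change -1.16, SE 0.48). Spc25 overlapped between genotypes, with 21.0, 10.8 and 24.5 CPM in KO against 28.9, 24.4 and 30.5 CPM in WT. Cenpf, a large protein of the fibrous corona, had 66.4, 31.4 and 48.9 CPM in KO libraries, against 84.8, 60.9 and 65.7 CPM in WT libraries. The KO 1 value lay within the WT range (log2 fold change -0.57, SE 0.30, limma adjusted p = 0.50). The Ska complex tracks microtubule ends, and its 2 measured subunits had log2 fold changes of opposite sign, -0.68 (SE 0.48) for Ska2 and 0.43 (SE 0.39) for Ska3, with overlapping groups. Both share exon bases with an opposite-strand gene.

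**Figure D2:**
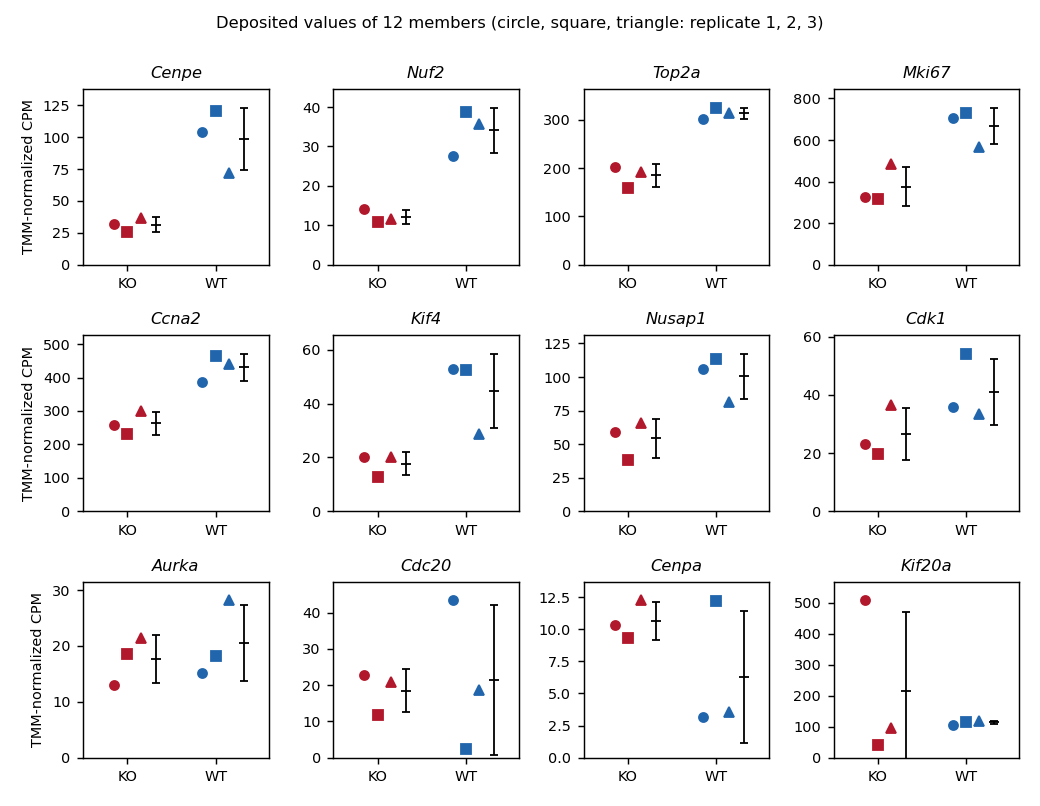
TMM-normalized CPM of 12 members in KO (red, left) and WT (blue, right) libraries, with the mean and SD beside the points (the lower bar of Kif20a is cut at 0). Cenpe, Nuf2, Top2a, Mki67, Ccna2, Kif4 and Nusap1 do not overlap between genotypes, Cdk1, Aurka, Cdc20 and Cenpa do, and Kif20a stands at 507 CPM in KO 1 alone.

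The centromere genes did not share one direction: 4 of the 7 had lower means in KO on the log scale and 3 higher, with a median of -0.01. Cenpa encodes the histone H3 variant that marks the centromere. It had 10.3, 9.31 and 12.2 CPM in KO libraries, against 3.14, 12.2 and 3.52 CPM in WT libraries. WT 2 reached the KO level, and the values rest on 5 to 27 reads (log2 fold change 0.95, SE 0.64, limma adjusted p = 0.583). Cenpb, which binds a short motif in centromere satellite DNA, had 77.1, 106 and 110.1 CPM in KO against 80.4, 80.0 and 83.3 CPM in WT. Cenpc1, the link between centromere chromatin and the outer plate, had 34.7, 37.2 and 29.4 CPM in KO against 20.1, 45.7 and 26.4 CPM in WT. Both had higher KO means with overlapping groups. Cenpk, Cenpo, Cenpp and Cenpu are parts of the constitutive inner network, and all 4 share exon bases with an opposite-strand gene. Cenpu had 153, 163 and 166 CPM in KO libraries, against 185, 262 and 232 CPM in WT libraries. Cenpk had 36.3, 25.0 and 36.7 CPM in KO libraries, against 44.0, 42.7 and 51.6 CPM in WT libraries. These groups did not overlap, and the log2 fold change was -0.48 (SE 0.19) for Cenpu and -0.51 (SE 0.25) for Cenpk. Cenpo was the highest of the centromere genes, with 507, 311 and 537 CPM in KO against 508, 648 and 627 CPM in WT, and KO 3 lay within the WT range. Cenpp had 22.0 ± 6.99 CPM in KO and 21.6 ± 2.00 CPM in WT (SD, n = 3 each).

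All 6 checkpoint and mitotic kinase genes had lower means in KO, where 48.6% of all genes did on the log scale. For Ttk every KO value lay below 7.35 CPM, so it has a row through WT libraries alone and its direction carries no weight. In 2 of the 6 every KO library lay below every WT library, against 9.57% of all genes. Plk4, the kinase that starts centriole duplication, had 27.1, 17.1 and 26.9 CPM in KO libraries, against 34.6, 38.9 and 42.2 CPM in WT libraries. Bub1b encodes BubR1, which binds and blocks Cdc20. It had 14.9, 10.3 and 24.5 CPM in KO libraries, against 30.8, 32.8 and 24.6 CPM in WT libraries. KO 3 and WT 3 were nearly level, at 40 and 42 reads. The log2 fold change was -0.71 for Plk4 (SE 0.28, limma adjusted p = 0.397) and -0.89 for Bub1b (SE 0.36, limma adjusted p = 0.418). Bub1, the kinase that recruits checkpoint proteins, had 22.5, 5.39 and 7.95 CPM in KO libraries, against 17.0, 19.8 and 19.3 CPM in WT libraries. KO 1 was the highest of the 6 libraries and the other 2 KO libraries the lowest. Ttk, the upstream checkpoint kinase Mps1, stood at 4.28 to 6.11 CPM in KO and 3.77 to 9.38 CPM in WT. Aurka, the spindle pole kinase, had 13, 18.6 and 21.4 CPM in KO libraries, against 15.1, 18.3 and 28.1 CPM in WT libraries. Aurkb, the kinase of the chromosomal passenger complex, had 13, 9.80 and 7.95 CPM in KO libraries, against 13.8, 9.14 and 11.1 CPM in WT libraries. The Aurora kinase genes thus overlapped widely between genotypes, and the log2 fold change was -0.19 (SE 0.36) for Aurka and -0.15 (SE 0.43) for Aurkb.

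Of the cyclin group, Ccna2, which encodes cyclin A2, did not overlap between genotypes. It had 258, 232 and 299 CPM in KO libraries, against 386, 465 and 440.3 CPM in WT libraries (log2 fold change -0.71, SE 0.18, limma adjusted p = 0.273, DESeq2 adjusted p = 0.0166). It shares 510 exon bases with Exosc9 on the opposite strand. Ccnb1, cyclin B1, had 25.2, 11.3 and 15.3 CPM in KO libraries, against 22.6, 27.4 and 32.2 CPM in WT libraries. Ccnb2, cyclin B2, had 11.8, 11.8 and 27.5 CPM in KO libraries, against 29.5, 35.8 and 22.9 CPM in WT libraries. In each B-type cyclin 1 KO library reached the WT range, KO 1 for Ccnb1 and KO 3 for Ccnb2. Cdk1, the kinase that drives entry into mitosis, had 23.3, 19.6 and 36.7 CPM in KO libraries, against 35.8, 54.1 and 33.4 CPM in WT libraries, and KO 3 again lay within the WT range (log2 fold change -0.64, SE 0.32, limma adjusted p = 0.493). Cdc20, the coactivator that the checkpoint blocks, had 22.9, 11.8 and 20.8 CPM in KO libraries, against 43.3, 2.29 and 18.8 CPM in WT libraries. WT 2 held 3 reads of it. Its mean was lower in KO (18.5 CPM against 21.5 CPM in WT), while its log2 fold change was 0.46 (SE 0.86), and -0.67 without WT 2.

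**Figure D3:**
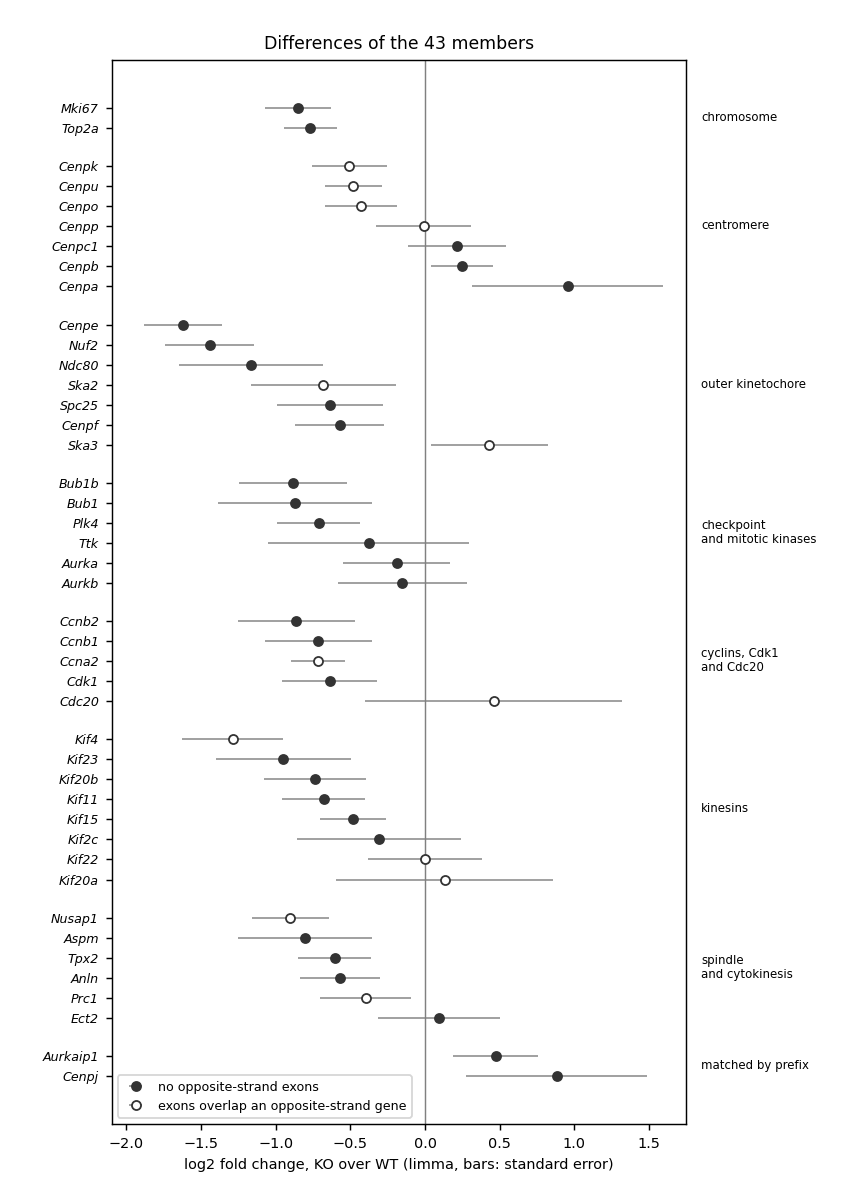
Log2 fold change of KO over WT for each member with its limma standard error, grouped by role (filled: no opposite-strand exons; open: exons shared with an opposite-strand gene). Cenpe (-1.62) and Nuf2 (-1.44) lie farthest left, and the centromere genes lie on both sides of 0.

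In 3 of the 8 kinesin genes every KO library lay below every WT library, against 9.57% of all genes. Kif4, a chromokinesin that shortens midzone microtubules, had 20.2, 12.7 and 20.2 CPM in KO libraries, against 52.8, 52.6 and 28.7 CPM in WT libraries (log2 fold change -1.29, SE 0.34, limma adjusted p = 0.281). It shares exon bases with Pdzd11. Kif11, the motor that pushes spindle poles apart, had 40.1, 28.4 and 57.5 CPM in KO libraries, against 59.1, 69.3 and 66.8 CPM in WT libraries. KO 3 came close to WT 1. Kif15, which backs up Kif11, had 38.5, 41.6 and 45.9 CPM in KO libraries, against 50.3, 60.2 and 67.4 CPM in WT libraries. The log2 fold changes were -0.68 (SE 0.28) for Kif11 and -0.48 (SE 0.22) for Kif15. Kif20b, a motor of the midbody, had 34, 16.7 and 28.8 CPM in KO libraries, against 43.3, 56.4 and 31.7 CPM in WT libraries, and KO 1 lay above WT 3. The log2 fold change was -0.95 (SE 0.45) for Kif23, a part of centralspindlin, -0.31 (SE 0.55) for the depolymerase Kif2c and -0.0026 (SE 0.38) for the chromokinesin Kif22, all 3 with overlapping groups.

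Kif20a, a midzone motor, had 507, 39.2 and 96.0 CPM in KO libraries, against 107, 116 and 118 CPM in WT libraries. KO 1 stood apart with 1328 reads, while the other 2 KO libraries lay below all 3 WT libraries. The log2 fold change was 0.13 (SE 0.73), and -0.88 without KO 1. It shares 1271 exon bases with Cdc23 on the opposite strand.

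In 4 of the 6 spindle and cytokinesis genes every KO library lay below every WT library, against 9.57% of all genes. Nusap1, which bundles spindle microtubules around chromosomes, had 58.8, 38.2 and 66.1 CPM in KO libraries, against 106, 114 and 81.5 CPM in WT libraries (log2 fold change -0.90, SE 0.26, limma adjusted p = 0.288). It shares 172 exon bases with Oip5. Tpx2, the activator of Aurora A, had 42.4, 28.4 and 41.0 CPM in KO libraries, against 49.6, 61.7 and 57.5 CPM in WT libraries. Anln, the anillin of the cleavage furrow, had 63.7, 36.3 and 69.1 CPM in KO libraries, against 77.9, 78.5 and 86.2 CPM in WT libraries. Aspm, a spindle pole protein, had 30.5, 9.31 and 31.8 CPM in KO libraries, against 38.3, 32 and 41.0 CPM in WT libraries, where KO 3 nearly met WT 2. The log2 fold change was -0.60 (SE 0.25) for Tpx2, -0.57 (SE 0.27) for Anln and -0.80 (SE 0.45) for Aspm. Prc1, the bundler of midzone microtubules, had a log2 fold change of -0.40 (SE 0.31) with KO 3 above all WT libraries. Ect2, the exchange factor that activates RhoA at the furrow, had 15.2 ± 1.54 CPM in KO and 15.1 ± 6.17 CPM in WT (SD, n = 3 each).

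Both genes that only share the start of a symbol had higher means in KO. Aurkaip1 had 28.2, 30.9 and 24.5 CPM in KO libraries, against 25.1, 18.3 and 17.0 CPM in WT libraries, and Cenpj had 6.11, 10.8 and 12.8 CPM in KO libraries, against 7.54, 3.81 and 4.10 CPM in WT libraries. The groups overlapped in each, and the log2 fold change was 0.47 (SE 0.29) for Aurkaip1 and 0.88 (SE 0.61) for Cenpj. Without them, a choice made after seeing the data, the median of the other 41 was -0.60.

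Levels per length put the genes in a different order from levels per gene. In CPM per kilobase of exon, Ccna2 was highest at 64.4 in KO and 105 in WT, followed by Cenpo at 62.2 in KO and 81.8 in WT. Mki67 was at 37.3 in KO and 66.3 in WT, Cenpu at 40.2 in KO and 56.6 in WT, and Top2a at 20.5 in KO and 34.8 in WT. Ttk was at 1.04 in KO and 1.46 in WT, and Cenpa at 1.81 in KO and 1.07 in WT. Rows with opposite-strand exons stood higher: the median of the 13 was 6.40 to 11.6 CPM per kilobase in KO libraries and 10.04 to 11.1 in WT libraries, while that of the other 30 was 2.93 to 4.56 in KO libraries and 5.43 to 6.86 in WT libraries. Over all genes the medians were 6.87 to 7.60 with opposite-strand exons and 5.22 to 5.69 without.

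The genes opposite these members had values of their own. Of the 13 partners with the most shared bases, 10 were measured, and the other 3 were not analysed here. In 3 of the 10 every KO library lay below every WT library, in 0 above, and 7 overlapped, beside 9.57% and 8.82% of all genes without overlap. Exosc9, opposite Ccna2, had 335, 198 and 498 CPM in KO libraries, against 686, 992 and 776 CPM in WT libraries. Primpol, opposite Cenpu over 1069 bases, had 80.1, 56.8 and 92.4 CPM in KO libraries, against 123, 193 and 149.5 CPM in WT libraries. Cdc23, opposite Kif20a, had 552, 223 and 667 CPM in KO libraries, against 700.5, 928 and 909 CPM in WT libraries. These are the 3 without overlap. The log2 fold change was -1.33 (SE 0.32) for Exosc9, -1.02 (SE 0.25) for Primpol and -0.95 (SE 0.37) for Cdc23, each larger in size than that of the member opposite. The partner of Kif20a was not raised in KO 1. Adcy3, opposite Cenpo over 1380 bases, overlapped between genotypes, with 52.7, 63.7 and 86.3 CPM in KO and 67.2, 71.6 and 86.8 CPM in WT. The other 6 also overlapped. Among them Pdzd11, opposite Kif4 over 832 bases, had 12.2, 8.33 and 18.4 CPM in KO libraries, against 5.03, 11.4 and 22.9 CPM in WT libraries, a log2 fold change of 0.15 (SE 0.58). Ppwd1, opposite Cenpk, was at 0.32 (SE 0.38), Oip5, opposite Nusap1, at -0.57 (SE 0.39), and Ippk, opposite Cenpp, at -0.67 (SE 0.41) on the same log2 scale. Sap18, opposite Ska3, was at -0.34 (SE 0.25) and Elovl1, opposite Cdc20, at 0.00090 (SE 0.36). The partners were looked at after the members' values were seen, so no test is given.

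**Figure D4:**
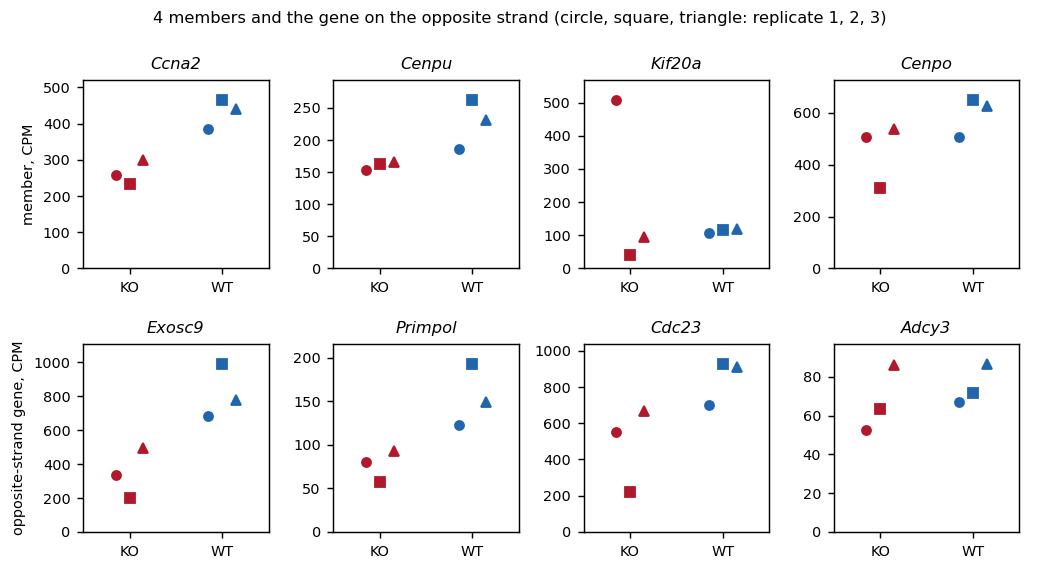
CPM of Ccna2, Cenpu, Kif20a and Cenpo (upper row) and of the gene on the opposite strand, Exosc9, Primpol, Cdc23 and Adcy3 (lower row), in KO (red, left) and WT (blue, right) libraries. Exosc9, Primpol and Cdc23 lie lower in all 3 KO libraries, and the 507 CPM of Kif20a in KO 1 has no counterpart in Cdc23.

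The promoters of these genes share short motifs that the choice by symbol did not use. CCAAT is the box bound by NF-Y, and TTTGAA or TTTAAA is the core of the cell cycle homology region, known in mammals for late cell cycle genes. The RefSeq table (GRCm38.p6) held 41 promoters of 37 members, each 250 bases before to 50 after the start, and both strands were searched. CCAAT stood in 68.3% of them, against 37.4% of all 32851 promoters. TTTGAA or TTTAAA stood in 70.7%, against 27.6%, and both motifs together in 53.7%, against 10.7%. The 20 members with both had a median log2 fold change of -0.66, and in 7 every KO library lay below every WT library. The 17 with an entry but not both had a median of -0.51 and 8 such members, and over all genes the share was 9.57%. No test of the difference between these sets was made. A match of letters is not a binding site.

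The promoters of the 3 members that DESeq2 called and that had an entry are shown with both motifs, on either strand, in capitals, beside that of Nuf2, whose log2 fold change was next in size to that of Cenpe and whose window holds neither motif. The Cenpe window is chr3:135212313-135212612 on the plus strand, Top2a chr11:99024140-99024439, Mki67 chr7:135716330-135716629 and Nuf2 chr1:169531415-169531714, these 3 on the minus strand.
Cenpe: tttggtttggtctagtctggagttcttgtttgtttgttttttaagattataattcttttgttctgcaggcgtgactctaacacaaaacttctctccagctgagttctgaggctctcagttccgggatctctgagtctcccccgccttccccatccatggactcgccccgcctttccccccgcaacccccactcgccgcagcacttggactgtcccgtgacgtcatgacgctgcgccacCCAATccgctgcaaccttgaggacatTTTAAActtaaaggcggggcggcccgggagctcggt
Top2a: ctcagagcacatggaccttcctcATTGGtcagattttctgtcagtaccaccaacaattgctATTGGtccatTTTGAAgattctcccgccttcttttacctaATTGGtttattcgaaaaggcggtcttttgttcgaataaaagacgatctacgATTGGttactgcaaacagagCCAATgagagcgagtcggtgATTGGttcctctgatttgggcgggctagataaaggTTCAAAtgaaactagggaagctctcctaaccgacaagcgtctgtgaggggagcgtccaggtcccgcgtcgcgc
Mki67: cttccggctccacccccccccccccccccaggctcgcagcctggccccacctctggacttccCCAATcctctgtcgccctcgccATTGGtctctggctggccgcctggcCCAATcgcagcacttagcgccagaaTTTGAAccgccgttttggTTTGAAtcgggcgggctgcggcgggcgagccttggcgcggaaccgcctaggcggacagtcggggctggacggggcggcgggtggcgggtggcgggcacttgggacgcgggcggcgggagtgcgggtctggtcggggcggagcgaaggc
Nuf2: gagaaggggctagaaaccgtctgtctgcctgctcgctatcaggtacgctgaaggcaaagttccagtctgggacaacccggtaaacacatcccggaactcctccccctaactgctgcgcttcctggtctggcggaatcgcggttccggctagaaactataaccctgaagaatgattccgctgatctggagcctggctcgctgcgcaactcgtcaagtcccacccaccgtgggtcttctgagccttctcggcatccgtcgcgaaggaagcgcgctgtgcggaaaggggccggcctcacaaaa
In Cenpe the CCAAT box stands upstream of TTTAAA. Mki67 has 3 CCAAT boxes and 2 copies of TTTGAA, and Top2a has 6 and 2.

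Matches to the miR-34a seed were few in the 3′ ends of these messages. In the longest annotated 3′ UTR of each gene (GENCODE M21), a match to bases 2 to 8 of miR-34a stood in 1 of 43 members, Cenpo, or 2.33%, against 19.3% of 9648 genes. A match to bases 2 to 7 stood in 12 members, or 27.9%, against 37.8%. The members' UTRs were also shorter, with a median of 818 bases against 1448 over all genes. The match is in capitals in the sites below. They are the only longer match, in Cenpo, and the sites of 4 other members, all with lower means in KO. Sites of the other members with a match are not shown. Among those, Ccna2 had 3 matches, and Cenpb and Ect2 had higher means in KO.
Cenpo: ggccctgtggCACTGCCaacactgacc
Mki67: tactactgctACTGCCtgagtttaag
Top2a: ccaacttgtgACTGCCaagaccttct
Nuf2: aaaaatttgaACTGCCaccaaaattg
Ndc80: caagattgatACTGCCatgaaagaaa
The 12 members with a match had a median log2 fold change of -0.74, and 8 of them did not overlap between genotypes. The 31 without one had a median of -0.48, and 9 did not overlap. Over all genes 9.57% did not overlap with KO below WT. The difference between these sets was not tested.

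Other genes of mitosis, chosen by their function with earlier results known, also had mostly lower means in KO. Of 82 such genes, 63 were measured, 46 with lower and 17 with higher means on the log scale. Limma called 0 of them lower and 0 higher, DESeq2 likewise 0, and at an unadjusted p below 0.05 there were 9 lower genes and 0 higher ones (6.4% and 4.64% of all genes). In 15 every KO library lay below every WT library and in 3 above (9.57% and 8.82%), with a median log2 fold change of -0.38. Rows that passed through 1 genotype alone are among both. Pmf1 had 9.16, 0 and 0 CPM in KO libraries, and Espl1 lay below 7.35 CPM in every WT library. The direction of such rows carries no weight. Casc5, also named Knl1, the scaffold on which checkpoint proteins gather, had 25.2, 22.5 and 25.1 CPM in KO libraries, against 49.0, 47.2 and 48.7 CPM in WT libraries. Both genotypes were tight and far apart (log2 fold change -0.98, SE 0.23, limma adjusted p = 0.273). Sass6, a centriole cartwheel protein that shares exon bases with Gm42893, had a log2 fold change of -0.82 (SE 0.27), Incenp, the scaffold of the passenger complex, -0.81 (SE 0.32), and the spindle protein Dlgap5 -0.99 (SE 0.41). Of the genes with higher means in KO, Zwilch, a part of the kinetochore complex that recruits dynein, had a log2 fold change of 1.08 (SE 0.54) and shares exon bases with Lctl. Espl1, the separase that opens cohesin, had 0.92 (SE 0.53), its inhibitor Pttg1 1.35 (SE 1.15) and the spindle protein Psrc1 2.00 (SE 1.2). Psrc1 is listed at 0 in WT 1 and Pttg1 in WT 2, so their fitted values depend on the pseudocount.

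Genes of DNA replication, which act earlier in the cell cycle than those of mitosis, are the closest comparison. Of 46 such genes, 34 were measured, with a median log2 fold change of -0.50. Limma called 0 of them lower and 0 higher. At an unadjusted p below 0.05, 9 were lower and 0 higher, where 6.4% and 4.64% of all genes were. In 15 every KO library lay below every WT library and in 0 above, against 9.57% and 8.82% of all genes. Rows that passed through WT alone are among the 15. Mcm10, for example, had 3.82, 0 and 5.51 CPM in KO libraries, against 8.80, 13.7 and 9.97 CPM in WT libraries. The direction of such rows carries no weight. Mitotic and replication genes thus stood at medians of -0.57 and -0.50, and no test of the difference was made. DESeq2 called Orc4, a subunit of the origin recognition complex, which had 88.9, 96.5 and 83.2 CPM in KO libraries, against 155, 179.8 and 244 CPM in WT libraries and shares exon bases with Acvr2a on the opposite strand.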

How the data were processed

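Per the labels' protocols, libraries were made from Trizol-extracted total RNA with a stranded kit. Per the submitters' processing notes, HISAT2 2.1.0, StringTie 1.3.5, cutadapt 1.18, bcl2fastq and edgeR were used with mm10, and no roles are given. The deposited table gives for each gene a signal, namely read counts that the authors scaled to TMM-normalized CPM, as the table's name says, for 10189 genes. Dividing by the worth of 1 read, 0.382 to 0.762 CPM, turned 100% of the values into whole reads (tolerance 0.001 reads). The design had assumed plain CPM, and the same log-scale test was kept. Of the column names, 1 (KO 3) has the letter O where its sample's title has a zero.

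KO and WT were compared on log2(CPM + 0.5) over all 10189 genes and all 6 libraries by limma 3.58.1 in R 4.3.3 (two-sided, eBayes trend). Recovered reads were tested with edgeR 4.0.16, DESeq2 1.42.0 and limma-voom as alternatives, beside other pseudocounts, a filter, scalings, a replicate block and left-out libraries. The fits were tested on simulated data. Members and lists were chosen with earlier results of these data known. Library values are given for a fixed set of members and up to 4 of smallest p per role, and every member with a higher mean in KO is named. Symbols were matched to GENCODE M21 for 10129 genes. Python 3.11.15 and matplotlib 3.10.9 served for tables and plots.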

Additional observations from a re-analysis of the deposited data

How the results depend on the processing

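The median member had 38.0 to 71.0 reads in KO and 51.0 to 55.0 in WT, which limits the precision of single genes. Limma called 0 members under each alternative to it except DESeq2, which called 4 (Cenpe, Top2a, Ccna2 and Mki67). DESeq2 had 8 members lower at an unadjusted p below 0.05 and limma without KO 2 and WT 1 together 7, against 13. Leaving out single libraries gave 7 to 17 lower, 0 to 1 higher, 0 called and medians of -0.68 to -0.36. Of all genes, 7.8% were lower at an unadjusted p without KO 2 and 3.77% without WT 2, against 6.4% with all 6 libraries. For the other settings this share is not given here, so their counts are not read as a result about the members. In 17 to 23 members every remaining KO library lay below every remaining WT library. Leaving out a library can only keep or raise this count. Without KO 2 it held for 16.2% of all genes, against 9.57% with all 6. For the other left-out libraries the share is not given here, so the count of 23 has nothing to be read against. Same-numbered KO and WT samples did not deviate together (correlations 0.018, 0.065 and -0.056), which cannot show whether samples were paired or shared a batch. The numbers that open the sample titles are all lower in WT than in KO, and what they stand for is not stated. With the replicate block 0 members were called, 12 were lower at an unadjusted p and the median stayed -0.57.

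Of 806 log2 fold changes of single members under alternatives, 775 kept their direction and side of the threshold, 4 passed it (DESeq2) and 27 turned sign, in 9 members. The cause was not tested. Cenpp was 0.0051 with median-of-ratios scaling, 0.034 with upper-quartile scaling, 0.040 with edgeR, 0.041 with DESeq2, 0.029 with limma-voom and 0.24 without KO 2 and WT 1. Kif22 was 0.012, 0.041 and 0.0077 with both scalings and limma-voom. Cdc20 was -0.23 with edgeR and -0.22 with DESeq2. Without KO 2 and WT 1, Cenpc1 was -0.12 and Aurkb 0.011. Leaving out single libraries gave -0.88 to 0.96 for Kif20a, -0.047 to 0.54 for Cenpc1, -0.34 to 0.40 for Kif22, -0.24 to 0.19 for Cenpp, -0.67 to 1.32 for Cdc20, -0.38 to 0.058 for Aurka, -0.27 to 0.35 for Ect2, -0.85 to 0.22 for Kif2c and -0.33 to 0.0082 for Aurkb.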
